A study of Bos taurus with 16 samples.

Results

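Sirloin muscle from neonatal Hanwoo calves was compared between 2 maternal diets in 8 of the 16 RNA sequencing libraries of the study. The 8 libraries were those labelled as sirloin, and the remaining 8 came from round muscle. Per the labels, 4 sirloin libraries came from calves of control cows fed 100% of their nutritional requirement, and 4 came from calves of treated cows fed 150% during mid to late pregnancy. Per the study's methods the calves were male, were sampled at birth before colostrum, and each came from a different cow. Each library therefore represents 1 calf, and the p-values below measure the spread between calves. The samples were pieces of whole muscle, so every library mixes RNA from muscle fibres with RNA from the other cells of the tissue. In such bulk samples, fewer cells of a type and less RNA per cell cannot be told apart. Calves are called control calf 1 to 4 and treated calf 1 to 4 after the replicate numbers of the labels.

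Skeletal muscle of a newborn calf already holds its full set of slow and fast fibres, which run on mitochondrial respiration and on glycolysis to different extents. The coactivator PPARGC1A drives the genes of mitochondrial respiration in muscle. Its own transcription is raised by kinases that sense energy and contraction, among them AMPK and p38, and by the phosphatase calcineurin, which acts through the NFAT transcription factors. Adipocytes form between muscle bundles as marbling fat, and fibroadipogenic progenitors, the stromal cells of muscle, give rise to them and to matrix. The comparison asked whether overfeeding of the dam altered genes of muscle development, energy metabolism and fat formation in the sirloin of her calf.

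The sirloin libraries held 44863173 to 72165291 counts over 34109 listed genes, and 17409 to 18672 genes had at least 1 count in a library. The 10 most abundant genes took 15.6% to 22.1% of the counts. After each gene's mean over the libraries of a muscle was removed, every one of the 8 sirloin libraries correlated best with the round library of its own number and diet (Pearson's r of 0.579 to 0.892 across 300 genes, and at most 0.611 with any other number). The sirloin and round libraries of a number were therefore read as 1 calf. Levels below are CPM, the counts scaled to library size after TMM normalization in edgeR, unless TPM, the authors' length-corrected transcript measure, is named. TPM corrects for gene length, so levels of different genes are compared in TPM only.

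The libraries carried the contractile genes of skeletal muscle. MYH2, the myosin heavy chain of fast oxidative fibres, lay between 4203 and 12429 TPM, and MYH7, the myosin heavy chain of slow fibres, between 1325 and 3911 TPM. The summed level of the 13 measured fast fibre genes was 53825 to 75767 TPM, against 19831 to 38736 TPM for the 12 slow fibre genes. Both ranges overlapped between the diets. The lowest slow fibre sum, 19831 TPM, was that of treated calf 4.

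Treated calf 4 also carried RNA of fat cells at levels that no other sirloin library approached. Its summed level of mature adipocyte genes was 5035 TPM, against 439 to 694 TPM in the other libraries. ADIPOQ, the adipocyte hormone adiponectin, was at 678 TPM in this library and at most 0.549 TPM in the rest. FABP4, the fatty acid carrier of adipocytes, was at 2825 TPM against at most 3.78 TPM. UCP1, the uncoupling protein that lets brown fat make heat, was at 1098 TPM against at most 2.65 TPM. The lipid droplet protein PLIN1 was at 160.0 TPM against at most 1.36 TPM, and LEP, the adipocyte hormone leptin, was at 14.9 TPM and at 0 in the other 7. The fat genes were thus high in 1 of the 4 treated calves. In the round library of the same calf, FABP4 was at 2.94 TPM, UCP1 at 0.121 TPM and ADIPOQ at 0. At the limit of 10 CPM and 2-fold above every other library, 214 genes stood apart in treated calf 4, against 4 to 52 in each other library. Every comparison was therefore made with and without treated calf 4.

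**Figure D1:**
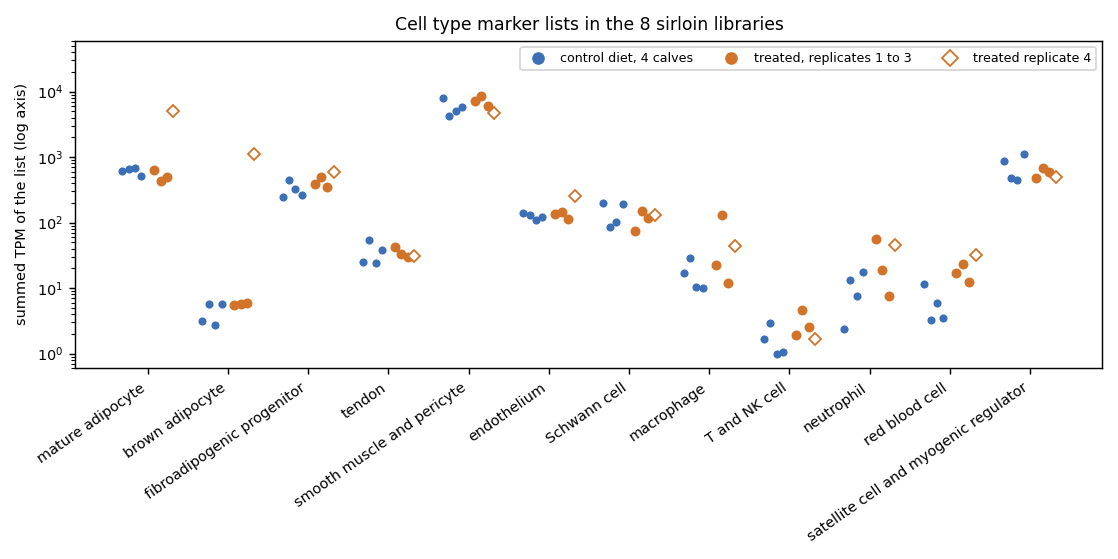
Summed TPM of 12 lists of cell type markers in each sirloin library, on a log axis, with control calves in blue, treated calves 1 to 3 in orange and treated calf 4 as an open diamond. Treated calf 4 stands at 5035 TPM for mature adipocyte genes and 1113 TPM for brown adipocyte genes, and treated calf 2 at 131 TPM for macrophage genes, each above all other libraries.

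With all 8 libraries, edgeR's quasi-likelihood test called 2 of 21776 genes (0.00918%) at an adjusted p under 0.05. LOC781412 rose (0.00459% of genes called higher) and NAB2 fell (0.00459% called lower). At an unadjusted p under 0.05 there were 852 genes (3.91%), of which 500 were higher (2.30%) and 352 lower (1.62%) in treated calves. That share is below the 5% that p-values without any difference would give. DESeq2, the tool of the study, called 13 of 21428 genes (0.0607%), 6 higher (0.0280%) and 7 lower (0.0327%), and had 698 (3.26%) at an unadjusted p under 0.05. limma-voom called 0 (0%), with 682 (3.13%) at an unadjusted p under 0.05. In simulated libraries of this design without any changed gene, DESeq2 made calls and edgeR made none. A single data set was drawn per setting, with edgeR's own dispersions and without an outlying library. The simulation therefore cannot decide which tool is right for these data. How many changed genes each tool recovered in simulated libraries is not given here. Because edgeR was chosen as the main test, genes called by DESeq2 alone are described with their values and not as changed.

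Without treated calf 4, edgeR called 0 of 21349 genes (0%), and 671 (3.14%) were at an unadjusted p under 0.05, 284 higher (1.33%) and 387 lower (1.81%). Of the 852 and 671 genes, 397 were in both sets, 196 higher and 201 lower. DESeq2 called 17 of 21253 genes (0.0800%) in these 7 libraries, and 9 of them were also called with all 8. limma-voom called 1 gene (0.00468%), CYP21A2. The median log2 fold change of all genes was 0.03 with and -0.0035 without treated calf 4.

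NAB2 (gene ID 504755) encodes a corepressor that binds EGR transcription factors and limits their activity. Its level was 10.05, 12.5, 16.3 and 12.5 CPM in control calves 1 to 4, and 2.78, 3.45, 2.69 and 2.50 CPM in treated calves 1 to 4. The groups did not overlap, and the lowest control calf lay well above the highest treated calf. The means were 12.8 ± 2.60 and 2.85 ± 0.414 CPM (SD, n = 4 each). NAB2 fell by 2.17 on the log2 scale, with a standard error of 0.25 and an edgeR adjusted p of 0.0397. Without treated calf 4 the log2 fold change was -2.11 and the edgeR adjusted p 0.168, while DESeq2 gave 4.26e-10. Leaving out any 1 of the 8 libraries brought edgeR's adjusted p to between 0.103 and 0.262, with a log2 fold change of -2.27 to -2.03. NAB2 overlaps STAT6 in the annotation, and STAT6 had a log2 fold change of 0.02 with an unadjusted edgeR p of 0.944.

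LOC781412 (gene ID 781412) is annotated as a pseudogene, so reads of its parent gene could be counted in it. Its level was 0.0901, 0.0272, 0.0340 and 0.0693 CPM in control calves 1 to 4, and 3.14, 1.99, 1.37 and 1.63 CPM in treated calves 1 to 4. Behind these stand 4, 2, 2 and 3 reads in the control and 156, 98, 90 and 112 reads in the treated libraries. All 4 treated calves were above all 4 control calves, which were near 0. The log2 fold change was 5.21 with a standard error of 0.55 and an edgeR adjusted p of 0.0318. Leaving out any 1 library gave an edgeR adjusted p of 0.0584 to 0.205, the lowest of them without treated calf 4. Every other gene had an edgeR adjusted p of at least 0.578, so for the genes below only a DESeq2 call or an unadjusted edgeR p is given.

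Of the other 5 genes that DESeq2 called higher, CYP4B1, a cytochrome P450 that oxidizes fatty acids and other substrates, had the largest ratio. It was at 0, 0.136, 0.0681 and 0 CPM in the control calves and at 4.33, 1.30, 4.74 and 1.44 CPM in the treated calves (DESeq2 adjusted p 1.29e-09, and 4.81e-10 without treated calf 4). Its edgeR log2 fold change was 5.64 ± 0.92 (SE), the third smallest edgeR p of all genes. RIPOR3 was at 6.47, 8.45, 7.59 and 6.17 CPM in control and at 16.1, 15.9, 12.7 and 15.0 CPM in treated calves. Neither gene overlapped between the diets. The protein-coding LOC533307 showed the same order, at 3.11 to 4.70 CPM in control and 7.20 to 10.7 CPM in treated calves.

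The long noncoding RNA LOC104970902 was at 2.25, 1.90, 4.85 and 4.39 CPM in control and at 16.2, 38.2, 4.89 and 10.7 CPM in treated calves, and treated calf 3 was level with the highest control calves. RGS1, a regulator of G protein signalling that is abundant in leukocytes, was at 0.285 to 0.531 CPM in control calves, at 1.01 to 1.42 CPM in treated calves 1 to 3 and at 5.63 CPM in treated calf 4. DESeq2's adjusted p for RGS1 was 0.0365 with treated calf 4 and 0.272 without it. Its groups did not overlap in either case.

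Of the other 6 genes that DESeq2 called lower, 3 encode signalling enzymes or factors of muscle and did not overlap between the diets. MAP2K6, the kinase that activates p38, was at 41.1, 40.7, 44.5 and 47.6 CPM in control and at 25.5, 21.3, 22.5 and 15.3 CPM in treated calves (log2 fold change -1.04 ± 0.20 SE, DESeq2 adjusted p 0.00827, and 0.0239 without treated calf 4). NFATC2, a transcription factor that calcineurin sends to the nucleus, was at 4.42, 3.60, 5.74 and 6.26 CPM in control and at 1.33, 2.29, 1.05 and 0.915 CPM in treated calves (-1.84 ± 0.38 SE, DESeq2 adjusted p 0.00301, and 0.0243 without treated calf 4). SGMS2, which makes sphingomyelin at the plasma membrane, was at 2.66, 2.20, 4.08 and 3.90 CPM in control and at 0.867, 0.589, 1.38 and 1.18 CPM in treated calves (-1.67 ± 0.38 SE, DESeq2 adjusted p 0.0207, and 0.0347 without treated calf 4). In all 3 genes every treated calf lay below every control calf.

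**Figure D2:**
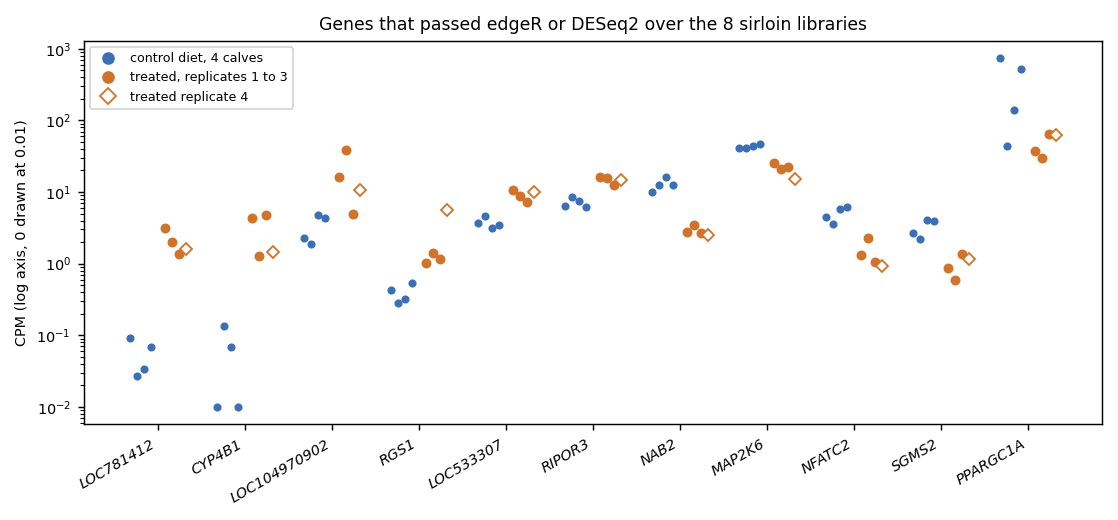
CPM of genes called by edgeR or DESeq2 in each sirloin library, on a log axis, with control calves in blue, treated calves 1 to 3 in orange and treated calf 4 as an open diamond. NAB2, MAP2K6, NFATC2 and SGMS2 do not overlap between the diets, whereas the control values of PPARGC1A spread from 44.1 to 741 CPM and reach into the treated range.

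PPARGC1A differed from these in its spread. It was at 741, 44.1, 139 and 523 CPM in control calves 1 to 4 and at 37.4, 29.9, 64.9 and 62.2 CPM in treated calves 1 to 4. Control calf 2 lay within the treated range, and control calves 1 and 4 were far above all others. The log2 fold change was -2.90 ± 0.72 (SE), with a DESeq2 adjusted p of 0.0127 with all libraries and 0.357 without treated calf 4. The pseudogene LOC101904275 was at 0.0451, 3.87, 0.153 and 7.67 CPM in control and at 0.0760 to 0.181 CPM in treated calves, and LOC101902754 at 0.293, 0.136, 3.13 and 3.03 CPM against 0.0203 to 0.202 CPM. In each of these, 2 control calves carried the difference and the other two lay near the treated calves.

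Among the 8 genes that DESeq2 called only in the 7 libraries without treated calf 4 were COL11A2, LOC100299281 and LOC101906837, in which that calf stood apart from the other treated calves. COL11A2, a chain of type XI collagen, was at 2.91 to 5.64 CPM in control calves, at 1.2 to 1.61 CPM in treated calves 1 to 3 and at 3.61 CPM in treated calf 4. The protein-coding LOC100299281 was at 20.9 to 30.5 CPM in control calves, at 12.3 to 14.4 CPM in treated calves 1 to 3 and at 45.6 CPM in treated calf 4. LOC101906837, which overlaps ADGB, was at 25.4 to 99.0 CPM, at 12.7 to 21.6 CPM and at 76.4 CPM in the same order. In these 3 genes treated calf 4 reached the control range or passed it.

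CYP21A2, the steroid 21-hydroxylase, had no read in the 4 control calves or in treated calf 4, and 31, 25 and 37 reads in treated calves 1 to 3. Against a floor of 3 reads over the control group it was at least 29.2-fold higher over the 4 treated calves, and the floor covers counting error only. In round muscle the order was the opposite, at 2.76 and 0.970 CPM of the plain library total in control calves 2 and 4 and at 0 in the rest. CYP21A2 overlaps TNXB, a matrix glycoprotein gene with a sirloin log2 fold change of -0.55. LOC617141 was at 0 to 0.258 CPM in control calves, at 1.04 to 2.39 CPM in treated calves 1 to 3 and at 0.174 CPM in treated calf 4. MEIOB, a meiotic DNA-binding protein, was at 1.82 to 5.93 CPM in control calves and at 0.645 to 1.17 CPM in treated calves 1 to 3, with 2.41 CPM in treated calf 4. The gene with ID 112448022, which matched no symbol, was at 254 to 355 CPM in control and at 145 to 207 CPM in treated calves, without overlap.

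LOC784052, a protein-coding gene, was called lower by edgeR only when control calf 3 was left out. In CPM of the plain library total it was at 4.25, 4.48, 0 and 4.73 in control calves 1 to 4 and at 0.107, 0.0220, 0.0907 and 0.0164 in treated calves 1 to 4. Its level was thus either above 4 or near 0, and 1 control calf was of the second kind.

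The CPM of 355 genes (1.63%) did not overlap between the diets, 178 higher (0.817%) and 177 lower (0.813%). When treated calf 4 was left out, 794 genes (3.72%) did not overlap. A narrower set held genes with a symbol, a mean of at least 1 CPM, no overlap and an unadjusted edgeR p under 0.05. This p limit applied both with and without treated calf 4. In this set 25 genes were higher and 64 lower, and the 10 with the smallest p in each direction were taken by rule. No share over all genes was computed for these limits. Over all genes, those without overlap were 178 higher and 177 lower, but these were taken without the other limits. They cannot show whether the 25 and 64 are a skew, which was not tested. The higher set held CYP4B1, RIPOR3 and RGS1, given above, and both enzymes of a protease pair. MMP14, the membrane protease that activates MMP2, was at 4.84, 9.02, 5.87 and 5.15 CPM in control and at 9.86, 17.4, 9.77 and 16.7 CPM in treated calves. MMP2, which degrades collagen IV and gelatin, was at 28.9, 36.0, 34.6 and 25.0 CPM in control and at 50.01, 67.7, 44.6 and 55.2 CPM under the treated diet, with a log2 fold change of 0.80 ± 0.21 (SE). The margin between the groups was small for MMP14 and wider for MMP2.

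The others of this set were SHISA5, an endoplasmic reticulum protein induced by p53 (means 7.37 and 17.2 CPM in control and treated calves), FAAH, which degrades endocannabinoids (6.53 and 10.5 CPM), PRPSAP1, a partner of phosphoribosyl pyrophosphate synthetase (13.1 and 23.3 CPM), the adhesion protein IGSF9B (0.316 and 2.23 CPM) and HBG, a fetal globin (0.195 and 1.86 CPM). HBG was at 0.360, 0.0951, 0.323 and 0 CPM in control and at 1.07, 4.10, 0.425 and 1.84 CPM in treated calves. Treated calf 3 lay just above control calf 1.

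The lower set held NAB2, MAP2K6, NFATC2 and SGMS2. PPP2R3A, a regulatory subunit of protein phosphatase 2A, was at 238, 125, 137 and 129.6 CPM in control and at 97.8, 64.7, 54.1 and 72.5 CPM in treated calves. KLF5, a transcription factor of early adipocyte differentiation, was at 10.9, 11.1, 11.7 and 8.01 CPM in control and at 6.51, 3.47, 4.92 and 5.76 CPM in treated calves. The endosomal fusion protein STX7 had means of 61.5 ± 5.95 and 36.9 ± 2.85 CPM, and the phosphatase PTPN21 208 ± 15.1 and 136 ± 8.39 CPM (SD, n = 4 each). Both had a spread within each diet that was small beside the difference. CST6, a cysteine protease inhibitor, had means of 18.1 and 6.99 CPM with 32.1 CPM in control calf 2.

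Gene lists are described by the number of their genes at an unadjusted edgeR p under 0.05 and by their median log2 fold change, beside 2.30% higher, 1.62% lower and a median of 0.03 over all genes. All lists were chosen with earlier results of these data known, so their counts are descriptions only. Some hold genes that the study reported as lower in sirloin, among them MAP2K6, NFATC2, PPARGC1A, SGMS2 and NAB2. Of the 19 genes of the calcineurin, NFAT and p38 list, 0 were higher and 4 lower, with a median of -0.24. These were MAP2K6, NFATC2, MAPK13 and PPP3CB. PPP3CB, a catalytic subunit of calcineurin, was at 154, 142, 149 and 159 CPM in control and at 133, 88.2, 103 and 118 CPM in treated calves. MAPK13 had reads only in control calves 1 and 2, at 0.135 and 0.177 CPM. NFATC1 and PPP3CA, a second NFAT factor and calcineurin subunit, overlapped between the diets, at log2 fold changes of -0.31 and -0.39. Without treated calf 4, 3 of the 19 were lower.

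The AMPK list had 0 of 12 genes higher and 3 lower, with a median of -0.28, and again 3 lower without treated calf 4. PRKAA1, a catalytic subunit of AMPK, was at 43.5, 26.0, 38.8 and 43.9 CPM in control and at 24.8, 16.5, 32.1 and 17.1 CPM in treated calves, and control calf 2 lay within the treated range. PPP2CB, a catalytic subunit of protein phosphatase 2A, was at 139, 37.3, 72.5 and 91.5 CPM in control and at 30.2 to 43.6 CPM in treated calves. PPP2R3A, given above, was the third. Of the lower genes only PRKAA1 encodes a subunit of AMPK. This list, like the others, was chosen with earlier results of these data known, so its count is a description only. PRKAA2, the AMPK catalytic subunit that prevails in muscle, overlapped between the diets (log2 fold change -0.47 ± 0.30 SE).

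Of the 20 partners and oxidative targets of PPARGC1A, 0 were higher and 2 lower, PPARGC1A and UCP3, and 18 had a log2 fold change below 0, with a median of -0.31. UCP3, a mitochondrial carrier of muscle, was at 175, 133, 556 and 204 CPM in control and at 121, 105, 141 and 96.3 CPM in treated calves. Control calf 3 stood apart, and treated calf 3 was above control calf 2. PERM1 and PPARA, a muscle coregulator and a receptor for fatty acids, overlapped between the diets with log2 fold changes of -0.38 and -0.44.

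PPARGC1A shared part of its order among control calves with other genes, here chosen after their values were seen. VGLL2, a cofactor of myogenic TEAD factors, was at 452, 37.6, 86.1 and 402 CPM in control calves and at 24.4 to 79.2 CPM in treated calves. NR4A3, an orphan receptor that exercise induces, was at 162, 3.09, 29.0 and 335 CPM and at 1.47 to 49.2 CPM. RCAN1, an inhibitor and target of calcineurin, was at 774, 52.5, 337 and 1139.5 CPM and at 56.9 to 619.6 CPM. In all of them control calves 1 and 4 were the highest and control calf 2 the lowest of the control group. Control calf 1 was above control calf 4 in PPARGC1A and VGLL2 and below it in NR4A3 and RCAN1.

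**Figure D3:**
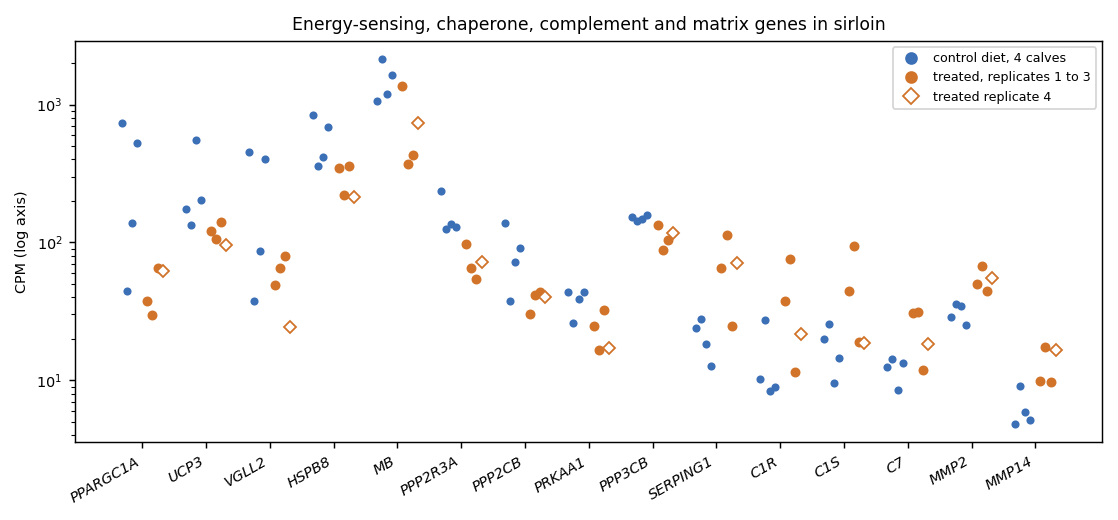
CPM of genes of energy sensing, chaperones, complement and matrix in each sirloin library, on a log axis, with 1 point per calf and colours by diet. PPP2R3A, PPP3CB, HSPB8, MMP14 and MMP2 separate the diets, and UCP3 reaches 556 CPM in control calf 3.

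Of the 16 glycolysis genes, 0 were higher and 2 lower, HK2 and PFKM, with a median of -0.39. PFKM, the muscle phosphofructokinase, was at 2716, 2302, 2578 and 1734 CPM in control and at 1972, 1299, 1672 and 1374 CPM in treated calves, and control calf 4 lay among the treated calves. HK2, the hexokinase of insulin-responsive tissue, was at 110.4 to 274 CPM in control and at 86.2 to 159 CPM in treated calves. SLC2A4, the insulin-regulated glucose transporter, was at 126 to 162 CPM and at 76.6 to 124 CPM, without overlap but with an unadjusted edgeR p of 0.0546. With treated calf 4 left out, 0 were lower and 1 was higher, PFKFB1. Of the 12 slow fibre genes 1 was lower, the oxygen store MB (myoglobin), at 1062, 2144, 1194 and 1628 CPM in control and at 1375, 368, 428 and 739 CPM in treated calves. Treated calf 1 was within the control range. The fast fibre list had 1 of 13 genes higher and 0 lower, and the higher one, the calcium buffer PVALB, was at 19.9 CPM in treated calf 4 and at most 0.225 CPM elsewhere.

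None of the 25 nuclear genes of the respiratory chain was at an unadjusted edgeR p under 0.05. All 25 had a log2 fold change below 0 with a median of -0.26, which was -0.31 without treated calf 4 and -0.10 without treated calf 2, where 2 of them were above 0. NDUFS1, a subunit of complex I, was at 342, 305, 301 and 261 CPM in control and at 254, 87.7, 223 and 275 CPM in treated calves, the lowest by far in treated calf 2. Of the 19 genes of fatty acid oxidation 0 were higher and 0 lower, with a median of -0.08. With treated calf 4 left out, 1 was lower, ACADM, and the median was -0.18, whereas without treated calf 2 the median was 0.09. ACADM, the medium-chain acyl-CoA dehydrogenase, was at 284, 390.1, 562 and 508 CPM in control and at 279.9, 178, 279.7 and 438 CPM in treated calves.

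The 13 protein-coding genes of the mitochondrial genome were added as a list after the values were seen, so only values are given. All 13 had a log2 fold change below 0, from -1.07 for ATP8 to -0.40 for COX1, with a median of -0.54. ND4L, a subunit of complex I, was at 358, 993, 517 and 396 CPM in control and at 297, 330.4, 284 and 294 CPM in treated calves. ATP8, a subunit of the ATP synthase, was at 1293, 3634, 3022 and 2100.2 CPM in control and at 953, 959, 931 and 1945 CPM in treated calves. ATP6, COX3, ND4L, ND4 and ND5 did not overlap between the diets. Control calf 2 had the highest level of 11 of the 13 genes, and without it the median was -0.37. With treated calf 4 left out, the median was -0.62 and 11 of the 13 genes did not overlap, beside 3.72% of all genes. With both calves left out, the median was -0.42. The summed TPM of the 13 genes was 124250 to 242440 in control and 121290 to 160870 in treated calves, so the sums overlapped.

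**Figure D4:**
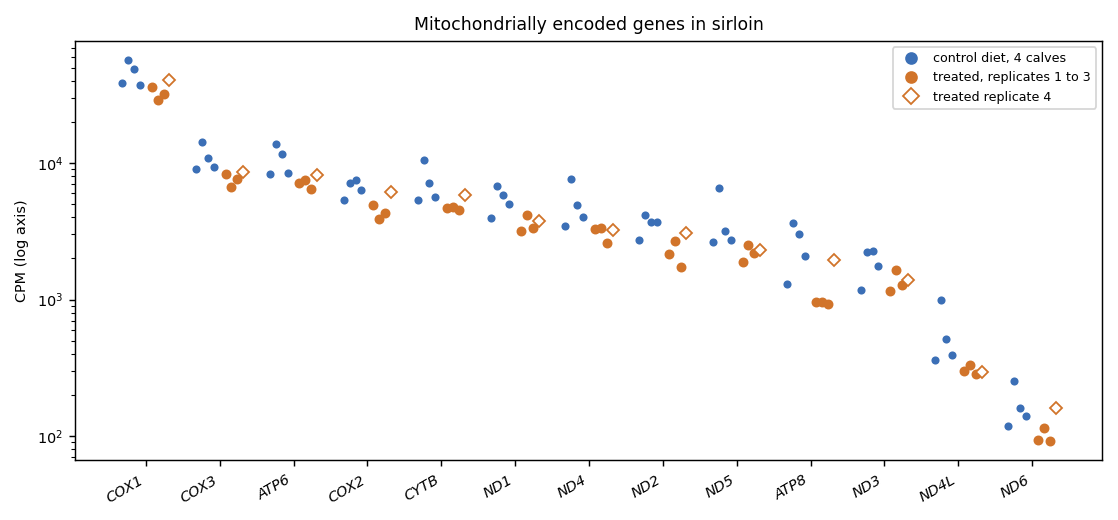
CPM of the genes encoded by the mitochondrial genome in each sirloin library, on a log axis, with 1 point per calf. The lowest value of each gene is that of a treated calf, and control calf 2 is the highest in ND4L (993 CPM), ND5 (6579.6 CPM) and ATP8 (3634 CPM).

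Markers of immune cells were high in some treated calves, with the macrophage and complement sums highest in treated calf 2 and the neutrophil sum highest in treated calf 1. Of the 12 macrophage genes 5 were higher and 0 lower, with a median of 1.56, and without treated calf 2 there was 1, with a median of 0.43. The summed TPM of the list was 131 in treated calf 2 and 10.2 to 43.6 in the other libraries. CD163, the haemoglobin scavenger receptor of macrophages, was at 4.96, 6.22, 3.66 and 2.79 CPM in control and at 5.18, 25.4, 3.89 and 17.6 CPM in treated calves. Treated calves 1 and 3 lay within the control range. FCGR2A, a receptor for antibodies on myeloid cells, had no read in control calves and was at 0.0605, 0.223, 0 and 1.18 CPM in treated calves, at least 29.8-fold higher against the floor of 3 reads over the control group. The pan-macrophage marker CD68 had a log2 fold change of 0.20 with overlap. MRC1, also of the macrophage list, went the other way, with a log2 fold change of -0.78. It was at 21.1 CPM in control calf 2 and at 0.577 to 6.55 CPM in the other libraries.

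Of the 19 complement genes 7 were higher and 1 lower, with a median of 1.27. With treated calf 4 left out these were 8 and 1, and without treated calf 2 they were 3 and 1 with a median of 0.66. SERPING1, the inhibitor of the C1 proteases, was at 24.1, 27.7, 18.3 and 12.7 CPM in control and at 65.0, 113, 24.9 and 71.5 CPM in treated calves. C1R, a C1 protease, was at 10.2, 27.2, 8.39 and 8.92 CPM in control and at 37.8, 75.7, 11.4 and 21.6 CPM in treated calves. In both genes treated calf 3 lay in the control range. C5 was lower, with reads only in control calves 1 and 2, at 0.180 and 0.938 CPM.

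The neutrophil list had 4 of 7 genes higher and 0 lower (median 1.39), and 1 higher without treated calf 4. S100A8, a calcium-binding protein of neutrophils, was at 0.248 to 0.739 CPM in control and at 2.92, 0.609, 0.198 and 2.58 CPM in treated calves. The red blood cell list had 2 of 8 genes higher (median 1.45), HBG and the alpha globin HBA, and 1 higher without treated calf 4. HBA was at 1.37, 0.299, 0.579 and 0.254 CPM in control and at 1.71, 2.39, 0.623 and 2.80 CPM in treated calves. For the T and NK cell list, 0 of 9 genes were higher or lower. All 21 interferon response genes were above an unadjusted edgeR p of 0.05, with a median of 0.14, or -0.42 without treated calf 2. The part of blood and immune cells in the results above was not tested.

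Of the 19 matrix proteases and inhibitors 4 were higher and 1 lower (median 0.12), and without treated calf 4 these were 3 and 1. The higher ones were MMP2, MMP14, MMP9 and CTSH. MMP9, a protease of neutrophils and macrophages, had reads in treated calves 1 and 4 only, at 0.443 and 0.131 CPM. CTSH, a lysosomal protease, was at 55.0 CPM in treated calf 4 and at 5.34 to 16.2 CPM in the rest. Among 20 collagen and matrix genes 0 were higher and 1 lower, TNXB, at 55.4, 66.5, 68.2 and 60.1 CPM in control and at 53.0, 37.4, 50.4 and 30.2 CPM in treated calves. The fibroadipogenic progenitor list had 1 of 10 genes higher, the receptor PDGFRA that defines these cells, and 1 lower, the progenitor marker PI16. PDGFRA was at 22.3, 30.4, 16.9 and 17.2 CPM in control and at 32.7, 55.3, 29.1 and 47.5 CPM in treated calves, with treated calf 3 just under control calf 2 (log2 fold change 0.92 ± 0.28 SE). PI16 was at 5.18, 13.4, 5.62 and 6.03 CPM and at 5.42, 4.00, 3.34 and 3.28 CPM. With treated calf 4 left out, PDGFRA was still higher, PI16 had an unadjusted edgeR p of 0.0599, and the median of the list went from 0.34 to 0.06. The collagen and matrix list then had 0 lower, and its median went from 0.10 to -0.14. The 10 tendon genes had 0 higher and 0 lower, and 0 higher and 3 lower without treated calf 4.

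The mature adipocyte list had 11 of 17 genes higher and 0 lower, with a median of 3.13. Without treated calf 4 there were 0 of 16 higher and 1 lower, and the median was -0.39, so the direction rested on that calf. The brown adipocyte list had 2 of 8 genes higher with it and 0 without. Of the 17 lipogenesis genes 4 were higher and 2 lower, and without treated calf 4 these were 0 and 3. ACLY, which makes cytosolic acetyl-CoA, was at 95.1 CPM in treated calf 4 and at 3.35 to 9.50 CPM in the other calves. ELOVL6, a fatty acid elongase, was at 57.9 CPM there and at 1.13 to 2.50 CPM elsewhere. The 2 lower genes with all libraries were KLF5 and AGPAT5. AGPAT5, an acyltransferase of phospholipid synthesis, was at 190.2, 241, 229 and 189.9 CPM in control and at 180.5, 119, 134 and 119.9 CPM in treated calves, without overlap.

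The immediate early list, genes that cells switch on within minutes of a stimulus, had 1 of 20 genes higher and 2 lower (median 0.05), and 0 higher and 4 lower without treated calf 4 (median -1.02). FOS, a subunit of AP-1, was at 21.8, 12.7, 45.1 and 17.1 CPM in control and at 34.6, 67.5, 30.3 and 432 CPM in treated calves. EGR1, the factor that NAB2 binds, was at 17.8, 9.58, 60.1 and 17.8 CPM in control and at 27.8, 7.61, 4.85 and 235 CPM under the treated diet, and its log2 fold change was 1.39 with treated calf 4 and -0.97 without it. IER2 was at 42.8 CPM in treated calf 4 and at 3.60 to 10.7 CPM in the others. FOS, EGR1 and IER2 were highest in treated calf 4. NAB2 was lowest there, at 2.50 CPM, but close to the 2.69 to 3.45 CPM of the other treated calves. Among control calves, control calf 3 had both the highest EGR1 and the highest NAB2, at 16.3 CPM. FOSL1, another AP-1 subunit, was the second lower gene, at 1.22, 0.204, 0.170 and 0.577 CPM in control and at 0, 0.0812, 0.0304 and 0.0726 CPM in treated calves.

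Of the 20 heat shock genes 0 were higher and 2 lower, HSPB8 and HSPA5 (median -0.35). HSPB8, a small heat shock protein of muscle, was at 847, 360.3, 417 and 688 CPM in control and at 348, 219, 356 and 215 CPM in treated calves, without overlap but with control calf 2 just above treated calf 3. HSPA5, the main chaperone of the endoplasmic reticulum, was at 175, 164, 66.7 and 1012 CPM in control and at 81.6 to 127 CPM in treated calves. Control calf 4 stood far above the other 7 calves, which overlapped. The satellite cell and myogenic regulator list had 1 of 14 genes higher, PAX3, at 0.566 CPM in treated calf 4 and 0.161 CPM in treated calf 1, and 1 lower, VGLL2.

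The remaining lists had at most 1 gene in either direction. The sphingomyelin and ceramide list had 1 of 20 genes higher, SMPD3, at 4.06 CPM in treated calf 4 and 0.0851 to 0.403 CPM elsewhere, and 1 lower, SGMS2. The glucocorticoid and atrophy list had 1 of 19 higher, the metallothionein MT2A, at 15.7, 11.1, 25.3 and 40.8 CPM in control and at 67.9, 298, 22.4 and 17.5 CPM in treated calves. The integrated stress response list had 1 of 20 genes higher. There were 0 higher and 0 lower among 11 developmental contractile, 10 smooth muscle and pericyte, 10 endothelium, 10 Schwann cell, 20 proliferation, 18 circadian clock and 20 IGF and insulin axis genes. Their medians lay between -0.22 and 0.25. With treated calf 4 left out, 0 fast fibre, 0 satellite cell and myogenic regulator and 0 sphingomyelin and ceramide genes were higher, 1 gene of the IGF and insulin axis was higher, and 1 gene of the integrated stress response was lower. IGF1 was at 39.2 CPM in treated calf 4 and at 3.10 to 10.01 CPM in the others.

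**Figure D5:**
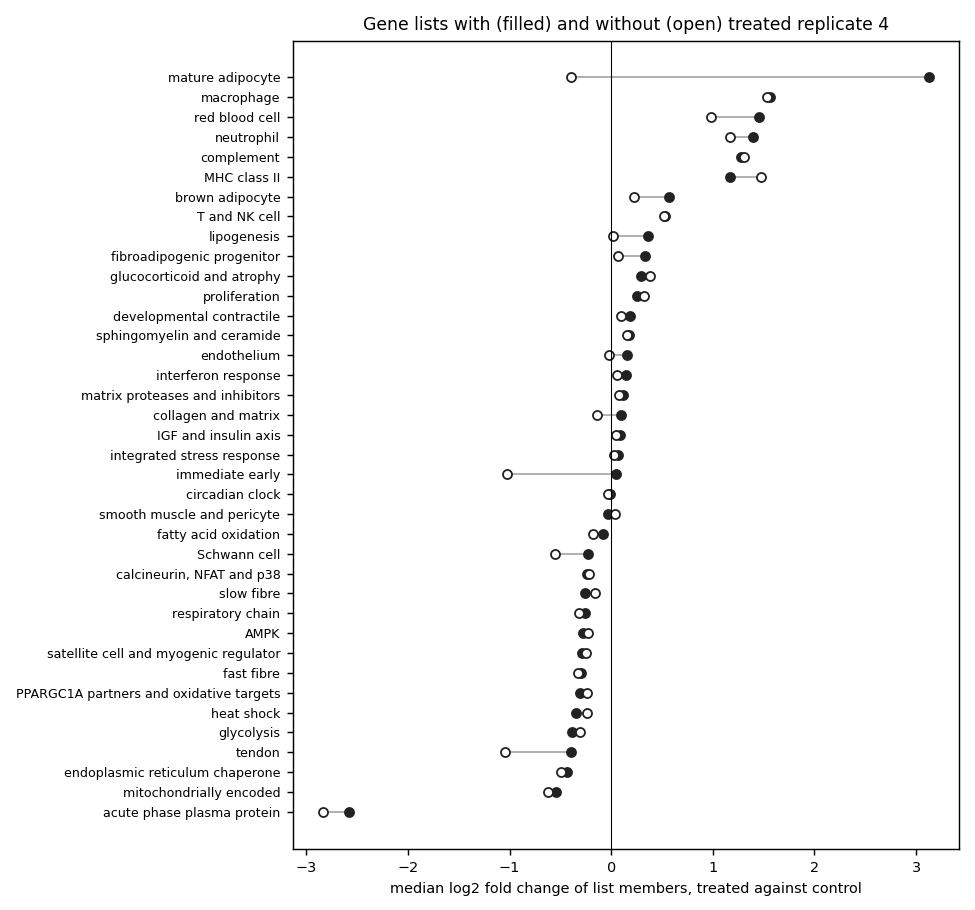
Median log2 fold change, treated minus control, of each gene list with all 8 libraries (filled points) and without treated calf 4 (open points). The mature adipocyte median moves from 3.13 to -0.39 and the immediate early median from 0.05 to -1.02, while the macrophage (1.56 and 1.53) and complement (1.27 and 1.31) medians stay.

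Other libraries also stood apart in sets of genes, here named after the values were seen. In control calf 1 these were cytoskeletal genes of muscle, with XIRP1 at 4300 CPM against 152 to 1723 CPM in the other libraries and FLNC at 12387 CPM against 1882 to 4858 CPM. In control calf 2 they were NOS1, the neuronal nitric oxide synthase of muscle, at 35.3 CPM against at most 4.58 CPM, COL6A6 at 11.3 CPM against at most 1.11 CPM, and the fibrinogen chains FGA, FGB and FGG at 10.1 to 15.5 CPM. In control calf 4 they were chaperones, with HSPA6 at 28.4 CPM against at most 1.81 CPM and HSP90B1 at 598 CPM against at most 192 CPM. In treated calf 1 they were the acute phase proteins LBP, at 26.5 CPM against at most 6.56 CPM, and HP, at 11.9 CPM against at most 5.91 CPM. In treated calf 2 they were CD74, the invariant chain of antigen presentation, at 224 CPM against at most 48.5 CPM, and IDO1, which degrades tryptophan, at 16.3 CPM against at most 3.74 CPM. The part of these libraries in the diet comparison was not tested beyond leaving each one out.

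The sirloin effect was set beside that in round muscle of the same calves. edgeR's test of the difference between the muscles called 0 of 22877 genes (0%), with 637 (2.78%) at an unadjusted p under 0.05. This test did not pair the muscles of a calf. With the calf as a block edgeR called 1 gene, AMBP, the precursor of a plasma protease inhibitor, with an adjusted p of 0.0223, and 865 genes were at an unadjusted p under 0.05. DESeq2 called 4 (0.0177%). For NAB2, the log2 fold change was -2.17 ± 0.25 in sirloin and -1.05 ± 0.30 in round muscle (SE), and the difference of -1.10 ± 0.35 had an unadjusted edgeR p of 0.00648 and an adjusted p of 1. LOC781412 had log2 fold changes of 5.21 ± 0.55 and 6.31 ± 0.75 (SE), with an edgeR adjusted p of 0.0266 in round muscle, where edgeR called 4 of 21677 genes (0.0185%). PPARGC1A had -2.90 ± 0.72 in sirloin and -2.71 ± 0.66 in round muscle (SE). MMP2 had 0.80 ± 0.21 and 0.21 ± 0.28, and MMP14 1.11 ± 0.30 and 0.02 ± 0.49 (SE), with unadjusted edgeR p-values of the difference of 0.086 and 0.0876. CYP21A2 had the opposite order in the muscles, with an unadjusted edgeR p of the difference of 0.000647 and an adjusted p of 1. The calves are the same in both muscles, so the round values are no independent repeat of the sirloin values.

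The 4 genes that DESeq2 called for the difference between the muscles were PROC, APOA2, C5 and CRP, which encode plasma proteins made by the liver. PROC, in CPM of the plain library total, was at 0.115 and 0.416 in the sirloin of control calves 1 and 2, at 0.849 in the round muscle of treated calf 3 and at 0 in the other 13 libraries. APOA2 was at 0.250, 0.554 and 0.939 in the same libraries and CRP at 0.212, 0.208 and 0.864, both at 0 elsewhere. C5 was at 0.154, 0.956 and 1.07 in the same libraries, at 0.176, 0.0899 and 0.0404 in the round muscle of control calves 1, 3 and 4, and at 0 in the other 10. All 4 genes were thus highest in the round muscle of treated calf 3, and PROC, APOA2 and CRP had reads in 3 of the 16 libraries.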

How the data were processed

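Per the labels, RNA was extracted from sirloin muscle of 4 control and 4 treated calves and sequenced as 1 library per calf. The submitters' processing notes name FastQC, Trimmomatic, STAR, featureCounts and DESeq2 and the genome build ARS-UCD1.2, whereas the study's methods name HISAT2, Bowtie2 and StringTie. The labels state poly(A) selection and the study's methods a stranded kit that removes rRNA and globin RNA, so which steps made the files, and whether strand was used in counting, is not known. The deposited read counts are whole numbers per gene without normalization. The second kind of deposited table was used as the authors' TPM, whose sum per library was close to 1000000. Control calf 2 had a sum of exactly 1000000 and the others of 999756 to 999858. The deposited comparison tables, which hold the authors' fold changes and p-values, were not used, and 0 columns of sample values remained without a sample.

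Counts were tested in R 4.3.3 with edgeR 4.0.16 (TMM, glmQLFit, glmQLFTest, two-sided) without covariates, on genes with at least 1 count in any library, with Benjamini-Hochberg adjustment and a threshold of 0.05. The standard error is that of the edgeR log2 fold change. The difference between the muscles used all 16 libraries in 4 groups. Alternatives were DESeq2 1.42.0, limma-voom (limma 3.58.1), RLE and upper-quartile normalization, filterByExpr, a mean of at least 1 CPM, the replicate number as a block, both muscles in 1 fit, log2(TPM + 0.1), and leaving out each library, or treated calf 4 and control calf 2 together. The tests were run on simulated data, in which DESeq2 called genes when none had been changed and edgeR called none. These data were a single draw per setting with edgeR's own dispersions, so they cannot rank the tools. Depth per library is given with the results, and intervals and floors, set at 3 reads over a group, cover counting error only.

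The comparison, the 34 gene lists and the 4 lists added later were chosen with earlier results of these data known. Genes were named by rule: those called by edgeR or DESeq2 with or without treated calf 4, the 10 in each direction with the smallest p among genes without overlap, up to 4 of each list with the smallest p, and the 10 that stood apart most in treated calf 4 and in control calf 2. Of these, 2 genes are not reported here. Further genes are named as chosen after their values were seen or as members of a list. Gene symbols were matched by gene ID to the RefSeq table of ARS-UCD2.0 for 30746 IDs (90.1%). No coordinates are given, because the builds differ. Sequences, and the planned search for promoter motifs, were not used here.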

Additional observations from a re-analysis of the deposited data

Results flagged for a closer look

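In a group of 4 calves a library was marked where its gap to the nearest of the others, divided by the range of the group, passed the critical value of Dixon's test for 4 samples at the 95% level. Of 232 groups checked, 24 (10.3%) held such a library, and chance marks about 1 in 20, or 12 of them. The groups came from the gene lists and from only part of the genes named in the text. ADIPOQ, FABP4, PLIN1 and PVALB, among others, were not checked, although treated calf 4 stood far above the other treated calves in each. ADIPOQ was at 968 CPM there against at most 0.161 CPM, and PVALB at 19.9 CPM against at most 0.203 CPM. The counts of marked groups therefore hold for the groups checked and not for all named genes.

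Treated calf 4 held 10 of the 24 marked groups. Its fat genes stood out most, with 5035 TPM over the mature adipocyte list (439 to 641 TPM in the other treated calves) and 1113 TPM over the brown adipocyte list (5.50 to 5.87 TPM). Among immediate early genes, FOS was at 432 CPM (30.3 to 67.5 CPM), EGR1 at 235 CPM (4.85 to 27.8 CPM) and IER2 at 42.8 CPM (3.60 to 5.04 CPM). COL11A2 was at 3.61 CPM (1.2 to 1.61 CPM) and RGS1 at 5.63 CPM (1.01 to 1.42 CPM). LOC100299281 was at 45.6 CPM (12.3 to 14.4 CPM), LOC101906837 at 76.4 CPM (12.7 to 21.6 CPM) and the mitochondrial ATP8 at 1945 CPM (931 to 959 CPM).

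Among the other treated calves, treated calf 2 had 473 TPM over the MHC class II list (35.2 to 59.4 TPM). Treated calf 3 had the lowest ND4 at 2599 CPM (3212 to 3328 CPM).

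In the control group, control calf 2 had CST6 at 32.1 CPM (11.5 to 14.6 CPM), ND5 at 6579.6 CPM (2624 to 3153 CPM), PI16 at 13.4 CPM (5.18 to 6.03 CPM) and C1R at 27.2 CPM (8.39 to 10.2 CPM). Its summed levels were 1461 TPM over the collagen and matrix list (786 to 882 TPM), 205 TPM over the complement list (95.0 to 101 TPM) and 306 TPM over the immediate early list (701 to 767 TPM), the last being the lowest. Control calf 4 had HSPA5 at 1012 CPM (66.7 to 175 CPM) and 1923.5 TPM over the endoplasmic reticulum chaperone list (408 to 615 TPM). Control calf 3 had UCP3 at 556 CPM (133 to 204 CPM) and EGR1 at 60.1 CPM (9.58 to 17.8 CPM), and control calf 1 had PPP2R3A at 238 CPM (125 to 137 CPM).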

How the results depend on the processing

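The count of genes called by edgeR, 2, was 13 with DESeq2, 0 with limma-voom, 0 with the replicate block, 0 without treated calf 4 and control calf 2 together, and 0 to 1 when 1 library was left out. The 1 gene, without control calf 3, was LOC784052. NAB2 and LOC781412 were called under RLE and upper-quartile normalization, both filters and the fit of both muscles. The 852 genes at an unadjusted p under 0.05 became 497 with filterByExpr, 447 with a mean of at least 1 CPM and 463 with the replicate block, the first and second of which tested fewer genes. Without treated calf 4, the 0 genes called became 17 with DESeq2, 1 with limma-voom (CYP21A2) and 0 to 1 when a further library was left out (LOC784052, without control calf 3). The 355 genes without overlap became 606 to 1049 when 1 library was left out and 1861 without treated calf 4 and control calf 2, as fewer samples make separation easier. For the difference between the muscles, the 0 genes called became 4 with DESeq2 and 1 with the calf as a block, AMBP. Apart from these, the cause of the differences was not tested.

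Calves of the same number were not paired between the diets. The deviations of control and treated calves of the same number correlated at -0.0836, -0.153, 0.163 and 0.0508 for numbers 1 to 4, across genes. With the replicate block, the edgeR adjusted p was 0.768 for NAB2 and 0.321 for LOC781412.

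There were 1393 alternative values for 78 of the named genes. Of these, 1350 kept their direction and, where an adjusted p existed, their side of the threshold. The log2(TPM + 0.1) values of the 78 genes and some DESeq2 values had no adjusted p and were judged by direction only. A further 22 were no longer called (NAB2 and LOC781412). The rest were 11 values newly called by DESeq2 and 10 that turned sign, all of EGR1, IER2 and STAT6. The 78 left out ADIPOQ, FABP4, PLIN1 and PVALB, among others. Without treated calf 4 the log2 fold changes of these genes went from 9.53 to -1.75, 8.12 to -0.50, 5.21 to -0.59 and 5.37 to -0.82. The log2 fold change of EGR1 was 1.39, -0.97 to 2.19 with 1 library left out, the lowest without treated calf 4, and -1.24 without control calf 2 as well. The log2 fold change of IER2 was 0.88, -0.85 to 1.19 with 1 library left out, the lowest again without treated calf 4, -0.84 without control calf 2 as well, and -0.0495 with the replicate block. The log2 fold change of STAT6 was 0.02, -0.11 to 0.17 with 1 library left out and -0.10 without treated calf 4 and control calf 2. Of 532 alternative medians for the 38 lists, 507 moved little and 25 moved by more than 1 SD between calves in the mean level of the list. A limit of 4-fold, chosen after the data were seen, left 97 of 214 genes apart in treated calf 4.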

Other observations

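The lists added after the values were seen gave further levels. The summed level of 9 MHC class II genes, which present antigen, was 473 TPM in the sirloin of treated calf 2 and 24.9 to 90.6 TPM in the other 7 sirloin libraries. The round muscle of treated calf 2 also had the highest round level, 1148 TPM. BOLA-DQB1, a class II beta chain, was at 25.3 CPM in the sirloin of treated calf 2 and at 0.681 to 6.08 CPM in the rest. The 14 chaperones of the endoplasmic reticulum summed to 1923.5 TPM in control calf 4 and to 408 to 704 TPM in the other sirloin libraries, and the round muscle of the same calf had 2350 TPM against 471 to 993.5 TPM in the other round libraries.

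Some transcripts of plasma proteins that the liver makes were highest in the same few libraries. FGA, a fibrinogen chain, in CPM of the plain library total, was at 11.5 in the sirloin of control calf 2, 1.67 in that of control calf 1 and at most 0.605 in the other sirloin libraries. It was at 29.8 in the round muscle of treated calf 3. AMBP, the precursor of a plasma protease inhibitor, was at 0.558 and 1.25 in the sirloin of control calves 1 and 2, at 3.95 in the round muscle of treated calf 3 and at most 0.257 elsewhere. ALB, the serum albumin gene, was at 1.48, 2.65 and 6.72 in the same 3 libraries and at most 0.417 elsewhere. The fibrinogen chain FGB had reads in every library, at 2.62, 15.8 and 46.8 in these 3 and at 0.156 to 1.54 elsewhere. APOA1, an apolipoprotein, did not follow this order. It was at 0.919 to 3.63 over all libraries, with the highest level in the sirloin of treated calf 4. The median log2 fold change of the 10 acute phase plasma proteins, a list also added after the values were seen, was -2.58 with all libraries and -0.72 without control calf 2. That of the MHC class II list was 1.17, or -0.43 without treated calf 2, and that of the endoplasmic reticulum chaperones was -0.43, or 0.05 without control calf 4.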
